A study of Mus musculus with 4 samples.

Results

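The collagen chains are described here as a gene family in leaflets of the semilunar valves (the aortic and the pulmonary valve) of neonates without Cxcr7 and of control neonates. A chain was taken as any gene whose single symbol in the array annotation is Col, a type number, a and a chain number, and each gene was read from its probe set with the highest mean signal over the arrays. This gave 42 chains among 18193 genes with such a probe set. Of these, 30 chains lay above a filter on dim probe sets that 11258 genes passed, and only these were tested. There were 4 arrays, 2 of Cxcr7-/- leaflets and 2 of Control leaflets, which the labels describe as wildtype littermates. Each array held RNA pooled from 3 neonates, so the value of a single animal is not seen and aortic and pulmonary leaflets are read together. The labels call the pools biological replicates, and the sources used here give neither the strain nor the Cxcr7 allele. Cxcr7, now named Ackr3, encodes an atypical receptor that binds and clears the chemokine CXCL12.

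Collagens are triple-helical proteins that carry tension and order the matrix of the valve leaflet. Fibrillar chains build the load-bearing fibrils, and fibril-associated collagens with interrupted helices (FACIT) sit on the surface of those fibrils and join them to other matrix. Type IV chains form the sheet of the basement membrane beneath endothelium, while beaded-filament, transmembrane, short-chain and multiplexin types link cells and fibrils. Each chain is made as a precursor, modified and folded in the endoplasmic reticulum, trimmed outside the cell and cross-linked by lysyl oxidases.

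As a check of the labels, Ackr3 read 28.3 and 328 in Cxcr7-/- pools against 4936 and 5698 in Control pools. Which part of the transcript the mutation removes is not stated there either. Over all probe sets above the filter, the Pearson correlation between arrays ran from 0.922 to 0.956, a value taken across probe sets that do not count as replicates. It was 0.956 within the Cxcr7-/- pools, 0.931 within the Control pools and 0.953 between Cxcr7-/- replicate 2 and Control replicate 1. For Actb, the 3' control probe set exceeded the 5' one by a ratio of 15.5 and 11.7 in Cxcr7-/- pools against 20.2 and 19.1 in Control pools. For Gapdh the ratios were 12.6 and 8.2 against 12.7 and 24.2, so Control replicate 2 stood apart there. Both Control pools had higher ratios than both Cxcr7-/- pools for both genes, though for Gapdh only by 12.7 against 12.6. This ratio therefore went with genotype, and its part in the differences between probe sets was not tested. All 12 valve interstitial markers on the list used here were above the filter, among them Vim, Postn, Dcn and Lum.

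The collagen chains did not all differ in one direction, and the difference between classes was not tested. Col9a1 and Col9a3, the chains of type IX (a FACIT collagen) that were tested, had higher signal in Cxcr7-/- leaflets, while Col9a2 was too dim to test. Col14a1 and the transmembrane chain Col13a1 had lower signal, as did Col8a1 of the short-chain type. In the most intense probe set of each gene, the chains of the main fibrils (types I, III and V) and the type IV chains Col4a1, Col4a2 and Col4a5 lay within 0.28 of no difference on the log2 scale. Some of their less intense probe sets lay further away. In limma's moderated test, 5 of 30 chains (16.7%) had an unadjusted p under 0.05, where 8.04% of all genes tested did. Of the chains, 2 were higher, where 3.95% of all genes were called in that direction, and 3 were lower, where 4.09% of all genes were. After Benjamini-Hochberg adjustment over all 22518 probe sets tested, no chain passed 0.05 and 0.0% of genes did. The differences are therefore given as values, and no chain is said to have changed.

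**Figure D1:**
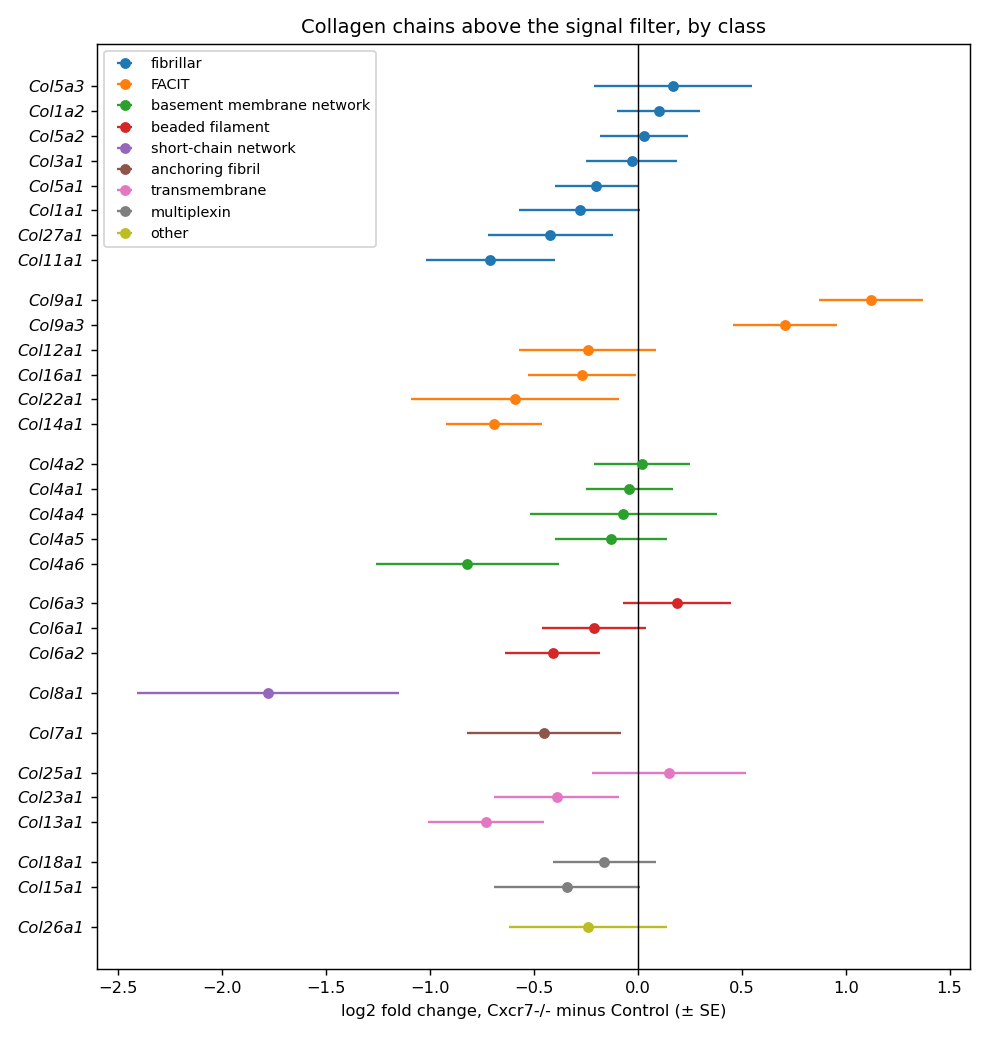
The log2 fold change (Cxcr7-/- minus Control, x axis) of the 30 collagen chains above the filter is plotted by class, with the standard error of the limma model as bars (n = 2 and 2 pools). Col9a1 and Col9a3 lie to the right at 1.12 and 0.71, Col8a1 lies farthest to the left at -1.78 with the widest bar, and most fibrillar and type IV chains lie near 0.

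The upstream sequence is shown for the chains with an unadjusted p under 0.05 that have an entry in the RefSeq promoter table (GRCm38.p6), to set the higher Col9a1 beside the lower Col13a1 and Col8a1. In all, 33 of the 42 chains matched the table. Each run is the 250 bases before an annotated start, 5′ to 3′ on the gene's strand, and Col9a1 has 2 annotated starts. The windows are chr1:24177360-24177609 (+) and chr1:24194953-24195202 (+) for Col9a1, chr10:61979109-61979358 (-) for Col13a1 and chr16:57754738-57754987 (-) for Col8a1. Capitals mark matches on either strand to TATAAA (the TATA box), CCAAT (the CCAAT box), GGGCGG (a GC box) or ACAAAG (a core bound by SOX factors), none of which overlapped here.
Col9a1, upstream start: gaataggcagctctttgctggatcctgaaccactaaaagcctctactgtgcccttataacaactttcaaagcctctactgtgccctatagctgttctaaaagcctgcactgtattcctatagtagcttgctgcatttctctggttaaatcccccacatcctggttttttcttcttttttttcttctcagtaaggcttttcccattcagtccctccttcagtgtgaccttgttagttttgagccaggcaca
Col9a1, downstream start: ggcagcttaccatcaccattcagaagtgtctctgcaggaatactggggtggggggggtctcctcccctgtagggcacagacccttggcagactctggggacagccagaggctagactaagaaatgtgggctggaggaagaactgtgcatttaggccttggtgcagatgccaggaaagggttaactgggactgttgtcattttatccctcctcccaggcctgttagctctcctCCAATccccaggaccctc
Col13a1: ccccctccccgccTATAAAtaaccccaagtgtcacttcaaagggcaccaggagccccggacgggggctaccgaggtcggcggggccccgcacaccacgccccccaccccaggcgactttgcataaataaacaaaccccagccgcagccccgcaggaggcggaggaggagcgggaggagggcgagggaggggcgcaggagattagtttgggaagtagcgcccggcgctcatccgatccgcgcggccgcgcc
Col8a1: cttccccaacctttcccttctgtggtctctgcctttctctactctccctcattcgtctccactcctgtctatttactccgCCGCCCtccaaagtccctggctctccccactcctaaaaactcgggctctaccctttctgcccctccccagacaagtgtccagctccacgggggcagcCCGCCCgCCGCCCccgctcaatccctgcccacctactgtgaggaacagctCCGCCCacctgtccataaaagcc
The upstream Col9a1 window held none of the motifs searched, and the downstream window held 1 CCAAT box. The Col13a1 window held 1 TATAAA, near the end of the window farthest from the annotated start, and the Col8a1 window 4 GC boxes. Over the 36 windows of collagen chains, GGGCGG was found in 58.3%, against 32.7% of the 32851 windows of the table. TATAAA was found in 13.9% against 12.4%, CCAAT in 36.1% against 33.8% and ACAAAG in 8.33% against 16.5%. A match is a description of the letters and not a site that was shown to be used.

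Type IX collagen, which decorates fibrils in cartilage, had higher signal in Cxcr7-/- leaflets for its 2 tested chains of 3 on the array. Col9a1 read 13451 and 9729.0 in Cxcr7-/- pools against 5731 and 4780 in Control pools. Both Cxcr7-/- pools were above both Control pools, and the ratio of the mean signals was 2.21. This was a log2 fold change of 1.12 ± 0.25 (SE, n = 2 pools each), with a limma unadjusted p of 0.002 and an adjusted p of 0.406. Among all genes tested, 42 had a smaller p. A less intense probe set of Col9a1 read 708 and 541 against 243 and 236, which gave 1.29 ± 0.31, and in all 4 cross comparisons it was at least 2-fold higher in Cxcr7-/- leaflets. It was the only collagen probe set of the 50 tested to be so far apart in every cross comparison, where 0.413% of all probe sets were higher by that rule and 1.23% lower.

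Col9a3, the partner chain in the same trimer, read 2855 and 2243 in Cxcr7-/- pools against 1566 and 1518 in Control pools. The pools again did not overlap, and the log2 fold change was 0.71 ± 0.25 (limma unadjusted p = 0.0245, adjusted p = 0.453). Its other probe set above the filter read 2136 and 1039 against 1279 and 1218, where the genotypes overlapped, at 0.25 ± 0.36. The higher signal of Col9a3 in that probe set came from Cxcr7-/- replicate 1 alone. Col9a2, which completes the trimer, read 17.2 and 7.19 against 18.3 and 8.15, below the filter, and was not tested. With 1 pool left out, Col9a1 ran from 0.89 to 1.36 and Col9a3 from 0.53 to 0.88. The unadjusted p of Col9a1 was at most 0.0382 in these fits, while that of Col9a3 was 0.228 without Cxcr7-/- replicate 1 and 0.0567 without Cxcr7-/- replicate 2. Without Control replicate 1, Col9a1 reached an adjusted p of 0.0279, in a fit in which 673 probe sets in all passed 0.05.

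**Figure D2:**
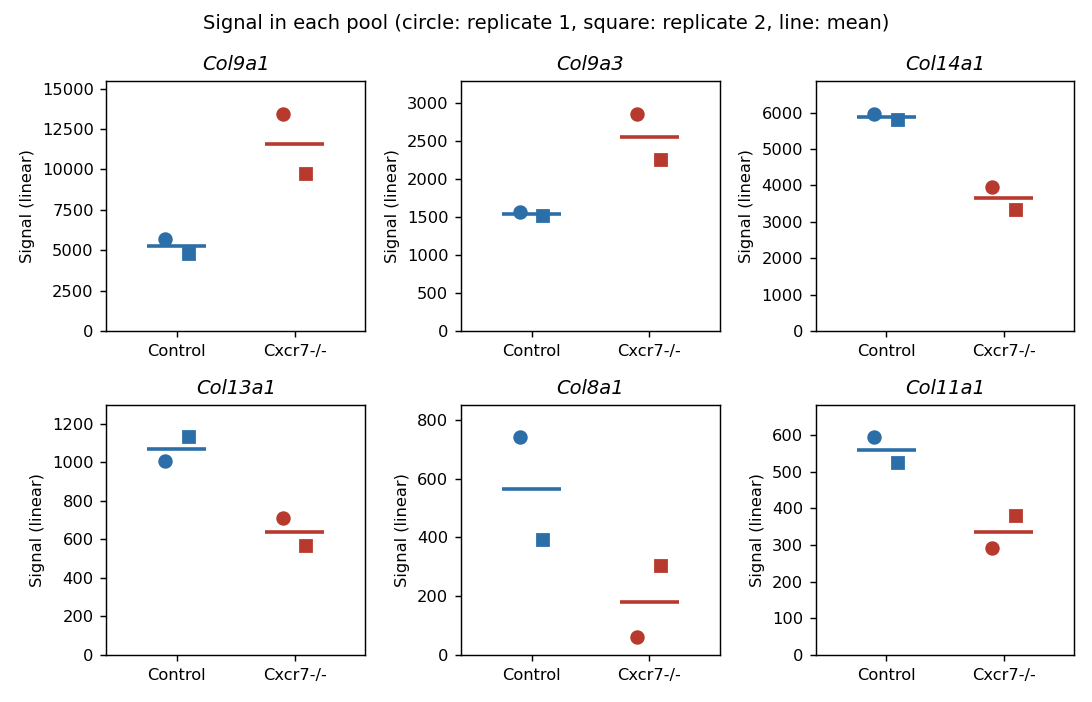
The linear signal (y axis, from 0) of 6 chains is shown for each pool, with circles for replicate 1, squares for replicate 2 and lines for group means. Both Cxcr7-/- pools are above both Control pools for Col9a1 and Col9a3 and below them for Col14a1, Col13a1, Col8a1 and Col11a1, and for Col8a1 the Cxcr7-/- pools lie at 61.3 and 301.

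The other FACIT chains that were tested, 4 in number, had negative log2 fold changes, with a median of -0.43, against 0.92 over the 2 type IX chains. The planned class holds both groups. Type IX held its only positive chains, so the opposite signs of these medians follow from the split. Col14a1, which binds fibrils through decorin and helps to set their diameter, read 3959 and 3335 in Cxcr7-/- pools against 5972 and 5785 in Control pools. Both Control pools were above both Cxcr7-/- pools, and the log2 fold change was -0.69 ± 0.23 (limma unadjusted p = 0.0165, adjusted p = 0.441). A less intense probe set of Col14a1 read 656 and 543 against 1063 and 1728, at -1.15 ± 0.32 (limma unadjusted p = 0.00743). With 1 pool left out, Col14a1 ran from -0.81 to -0.57, and its unadjusted p was 0.0561 without Cxcr7-/- replicate 1 and 0.159 without Cxcr7-/- replicate 2. With median centring it was -0.55, with an unadjusted p of 0.0792.

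Col16a1, a chain found near fibrillin and fibril surfaces, read 1276 and 1134 against 1357 and 1560, which do not overlap, at -0.27 ± 0.26. Col12a1, the long-armed relative of Col14a1, read 960 and 667 against 757 and 1186, with overlap, at -0.24 ± 0.33. Col22a1, known from tissue junctions such as that of muscle and tendon, was dim at 121 and 47.9 against 171 and 95.5 (-0.59 ± 0.50). Of the 6 FACIT chains tested 2, both of type IX, were higher at an unadjusted p under 0.05 in limma, where 3.95% of all genes were. By that rule 1 chain, Col14a1, was lower, where 4.09% of all genes were. The class median of -0.25 hides the type IX chains, and the class mean was 0.01.

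Among fibrillar chains the abundant fibril formers lay near 0 and Col11a1 lay lowest. Of 8 tested, none had an unadjusted p under 0.05 in limma, where 8.04% of all genes did, and 5 were below 0 (62.5%), where 49.6% of all genes were. With so few chains both counts are near those shares, and the median log2 fold change was -0.11. That median turned to 0.026 with median centring and to 0.078 without Control replicate 1. Col1a1 read 5254 and 5144 in Cxcr7-/- pools against 8278 and 4833 in Control pools, so that the Control pools lay on both sides of the mutant ones. A less intense probe set of Col1a1 read 711 and 714 against 789 and 949, without overlap, at -0.27 ± 0.28. Its partner in type I collagen, Col1a2, read 40260.0 and 39763 against 41194 and 33960, at 0.10 ± 0.20. Col3a1, the chain of the thin fibrils of compliant tissue, read 46582 and 48870.3 against 57468 and 41112, at -0.03 ± 0.22. In the most intense probe set of each of these 3 genes, the Control pools differed by more than the genotype means.

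Type V collagen nucleates type I fibrils and limits their width. Col5a2 read 38847 and 37477 against 43460 and 32053 (0.03 ± 0.21), and Col5a1 read 12148 and 13044 against 13830 and 15075 (-0.20 ± 0.20). The pools of Col5a1 did not overlap, by a small margin. Col5a3 was dim, at 135 and 189 against 128 and 154 (0.17 ± 0.38). The log2 differences of Col1a2, Col3a1 and Col5a2 changed sign between scalings or with a pool left out.

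The lowest fibrillar chain was Col11a1, which joins type II or type V collagen in the core of thin fibrils. It read 292 and 379 in Cxcr7-/- pools against 594 and 523 in Control pools, with no overlap, at -0.71 ± 0.31 (limma unadjusted p = 0.0522, adjusted p = 0.500). A second probe set of Col11a1 read 244 and 435 against 594 and 328, with overlap, at -0.41 ± 0.41. Col27a1, a fibrillar chain of cartilage and other tissues, read 532 and 434 against 584 and 721 (-0.42 ± 0.30). The main chain of cartilage fibrils, Col2a1, was below the filter at 8.57 and 14 against 42.2 and 26.3, and was not tested. Without overlap, 4 of the 12 chains below the filter were lower in Cxcr7-/- pools and 1 (Col6a5) was higher. The share of all genes below the filter with either pattern was not computed, so no lean is read from these counts. The Col2a1 values lie far below the filter's signal of about 87.4 and there are no detection calls. No direction is therefore read for Col2a1, and type II is not set against type IX.

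Of the type IV chains of the basement membrane, 4 lay within 0.13 of 0 in their most intense probe set and Col4a6 lay lower. Of 5 tested, none had an unadjusted p under 0.05 in limma, where 8.04% of all genes did, and the median log2 fold change was -0.07, which turned to 0.067 with median centring. With the mean over each gene's probe sets the median was -0.24. Col4a1 read 15009 and 15862 in Cxcr7-/- pools against 14139 and 17683 in Control pools, with overlap, at -0.04 ± 0.21. Col4a2, its partner in the common trimer and its neighbour in the genome, read 3033 and 2815 against 2807 and 2972, at 0.02 ± 0.23. A less intense probe set of Col4a1 read lower, at 2112 and 1617 against 2382 and 3173 (-0.57 ± 0.27, limma unadjusted p = 0.0733), so the 2 probe sets of this gene differ.

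Col4a5, which forms trimers with Col4a3 and Col4a4 or with Col4a6, read 2277 and 2599 against 3200 and 2229 (-0.13 ± 0.27). Col4a4 read 353 and 289 against 534 and 209, where the Control pools differed from each other by more than the genotypes did (-0.07 ± 0.45). Less intense probe sets above the filter lay lower, at -0.29 ± 0.37 for Col4a5 and -0.41 ± 0.36 for Col4a4, both with overlap. Col4a6 was the outlying chain of the class, at 76.1 and 91.3 against 114 and 233, with no overlap and a log2 fold change of -0.82 ± 0.44 (limma unadjusted p = 0.102). A second Col4a6 probe set, below the filter, read 77.4 and 84.0 against 61.3 and 76.3, without overlap in the opposite direction. Both are close to the level of the filter, a signal of about 87.4, so the direction depends on the probe set read. Col4a3 was below the filter. Across fibrillar and type IV chains together, 0 of 13 had an unadjusted p under 0.05 in limma, a count near the 8.04% of all genes.

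**Figure D3:**
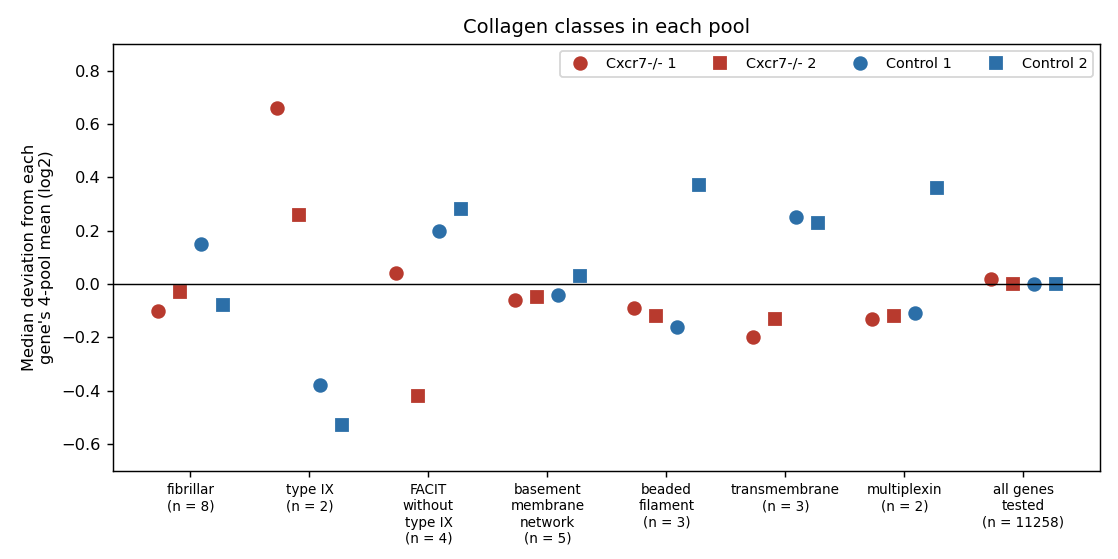
For each class, the median over its chains of the log2 deviation from the gene's mean over the 4 pools (y axis) is shown for each pool, with all 11258 genes tested at the right. FACIT is split into type IX and the other chains, which was not among the planned classes. Type IX lies at 0.66 and 0.26 in the Cxcr7-/- pools and at -0.38 and -0.53 in the Control pools, type IV stays between -0.06 and 0.03, and Control replicate 2 lies apart for beaded filament and multiplexin chains at 0.37 and 0.36.

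Col8a1 had the largest difference and the least even values. It encodes a short-chain collagen that forms lattices in vessel walls and beneath endothelium. It read 61.3 and 301 in Cxcr7-/- pools against 740 and 392 in Control pools, at -1.78 ± 0.63 (limma unadjusted p = 0.0223, adjusted p = 0.450). The pools did not overlap, but Cxcr7-/- replicate 2 lay closer to Control replicate 2 than to the other Cxcr7-/- pool. The log2 fold change was -0.80 without Cxcr7-/- replicate 1 (limma unadjusted p = 0.169), -1.34 without Control replicate 1 (limma unadjusted p = 0.0624) and -2.75 without Cxcr7-/- replicate 2. Of its other 2 probe sets, both below the filter, one read 18.2 and 27.8 against 94.0 and 84.2, and the other read 18.4 and 9.68 against 3.47 and 4.15. Col8a2, the partner chain, read 90.1 and 71.0 against 71.9 and 64.0 and was below the filter, as was Col10a1 of hypertrophic cartilage.

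The transmembrane collagens, which sit in the plasma membrane with their helices outside the cell, were lower in 2 of 3 cases. Col13a1, found at cell adhesion sites, read 712 and 566 in Cxcr7-/- pools against 1008 and 1129 in Control pools. The pools did not overlap, and the log2 fold change was -0.73 ± 0.28 (limma unadjusted p = 0.0326, adjusted p = 0.459). With median centring its unadjusted p was 0.113, at -0.59, and it was 0.226 without Cxcr7-/- replicate 2. Col23a1 read 324 and 356 against 443 and 463, also with no overlap (-0.39 ± 0.30), and its other 2 probe sets gave -0.77 ± 0.32 and -0.56 ± 0.39. Col25a1 read 217 and 257 against 271 and 163, with overlap (0.15 ± 0.37).

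Type VI chains build beaded filaments around cells. Col6a1 read 7249 and 7079 against 6884 and 9990 (-0.21 ± 0.25), and Col6a2 read 8087 and 8253 against 9396 and 12559 (-0.41 ± 0.23, limma unadjusted p = 0.113). Col6a3 read 7564 and 5948 against 5011 and 6896 (0.19 ± 0.26). Col6a3 is close to the mutated gene, with 1 protein-coding gene between it and Ackr3 on chromosome 1 in the RefSeq table, and its pools overlapped. Of the 7 collagen chains on that chromosome 5 were tested, with a median log2 fold change of 0.03, and Col9a1 is among them. Over these 3 tested chains the median difference between the Control pools, 0.46, was larger than each difference between genotype means. Col6a4 and Col6a5 were below the filter.

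The multiplexins carry heparan or chondroitin sulphate chains and lie in or near basement membranes. Col18a1, the source of endostatin, read 7832 and 6490.4 against 6654 and 9494 (-0.16 ± 0.25). Col15a1 read 201 and 252 against 248 and 343 (-0.34 ± 0.35). Col7a1, the anchoring fibril chain, read 114 and 123 against 184 and 157, with no overlap, at -0.45 ± 0.37. Col26a1 read 197 and 128 against 166 and 221 (-0.24 ± 0.38).

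Over the whole family, 22 of 30 chains (73.3%) had a log2 fold change below 0, where 49.6% of all genes tested did. The median was -0.22, against 0.00 over all genes. Median centring shifted the median over all probe sets by 0.14, and the share below 0 was then 60.0% of chains against 36.1% of all genes. Relative to the median of all genes, the chains' median was -0.23. Median centring shifts all genes of an array alike, so it cannot change that value. With quantile normalization it was -0.26. The pools did not overlap for 11 chains that were lower in Cxcr7-/- leaflets, where 19.1% of all genes had that pattern, and for 2 chains that were higher, where 21.1% did. With median centring 7 chains were lower, where 9.65% of all genes were, and 4 were higher, where 30.3% were. The 11 lower chains were spread over the classes: Col5a1, Col11a1 and Col27a1; Col14a1 and Col16a1; Col4a6; Col6a2; Col7a1; Col8a1; Col13a1 and Col23a1. The 2 higher chains were those of type IX.

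Probe sets of a chain mostly pointed the same way. Of 17 chains with 2 or 3 probe sets above the filter, 12 had all of them below 0, 2 (Col9a1 and Col9a3) had all above 0 and 3 were mixed. The mixed chains were Col1a2, Col5a1 and Col5a2. For Col1a2 the values were 0.10 ± 0.20, 0.43 ± 0.23 and -0.75 ± 0.33 in order of falling signal, so its direction depends on the probe set read. Over the 50 collagen probe sets tested, 8 had an unadjusted p under 0.05 in limma (16%), where 10.1% of all probe sets did.

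**Figure D4:**
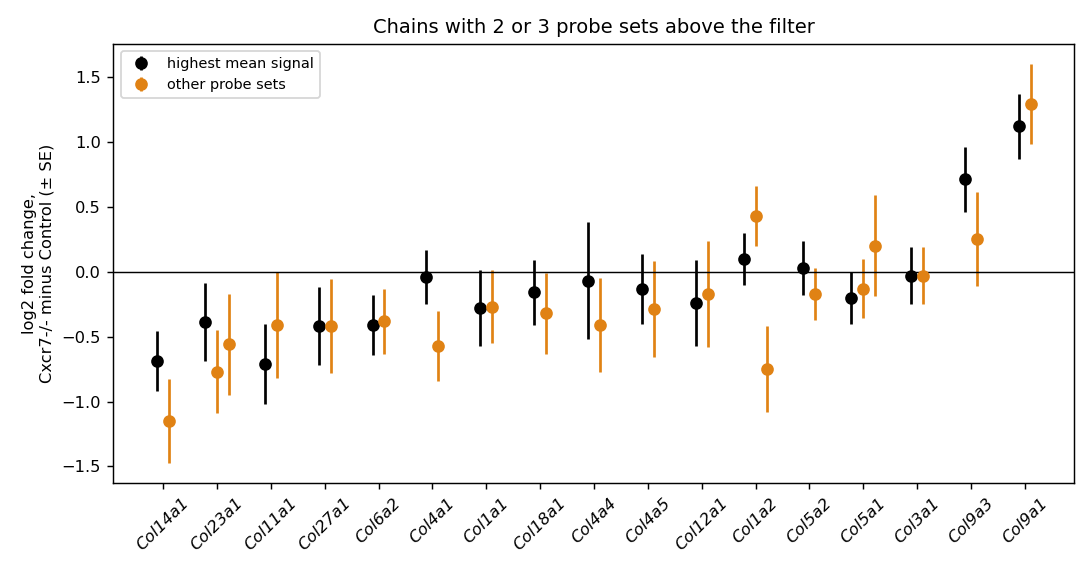
The log2 fold change (Cxcr7-/- minus Control, y axis, with limma standard errors) is shown for every probe set above the filter of the 17 chains that have 2 or 3, with the probe set of highest mean signal in black and the others in orange. Both probe sets of Col9a1 lie above 1, both of Col14a1 lie below -0.6, and those of Col1a2 fall on both sides of 0.

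The enzymes that mature collagen showed no common direction. Of 31 listed genes, 24 were tested, 13 were above 0 and 11 below, and the median log2 fold change was 0.07. Of the 24 tested, 1 had an unadjusted p under 0.05 in limma, a count near the 8.04% of all genes. It was the cross-linking enzyme lysyl oxidase, Lox, at 1291 and 2022 against 2903 and 2641 with no overlap (-0.77 ± 0.29, limma unadjusted p = 0.0292). Its relative Loxl1 read 5766 and 4687 against 5769 and 7265 (-0.32 ± 0.24). Ppib, a prolyl isomerase, gave 0.16 ± 0.21 and P4hb, a subunit of prolyl 4-hydroxylase, gave 0.13 ± 0.21, both with overlap. Other modifying enzymes lay further from 0 in both directions: P4ha2, a catalytic prolyl 4-hydroxylase subunit, gave 0.41 ± 0.30 and the prolyl 3-hydroxylase P3h1 gave -0.34 ± 0.28, neither with overlap. Of the 24 tested, 2 were higher without overlap and 5 lower, where 21.1% and 19.1% of all genes were. The lower ones were Lox, Loxl1, Mia3, Bmp1 and P3h1, and the higher ones P4ha2 and Serpinh1. The lysyl hydroxylases Plod1 and Plod2 gave 0.33 ± 0.33 and 0.30 ± 0.27, with overlap. Pcolce, which enhances trimming of the fibrillar precursors, gave 0.14 ± 0.24, and the collagen chaperone Serpinh1 gave 0.34 ± 0.25.

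Among 9 listed collagen receptors 6 were tested, 4 of them above 0 and 2 below. At an unadjusted p under 0.05 in limma 1 was higher and 1 lower, where 3.95% and 4.09% of all genes were. Itgb1, the integrin beta chain shared by the collagen-binding integrins, read 2449 and 2208 against 1559 and 1126 (0.80 ± 0.27, limma unadjusted p = 0.0188). Itga10, an alpha chain that pairs with it and is known from cartilage, read 185 and 258 against 492 and 358 (-0.88 ± 0.35, limma unadjusted p = 0.036). The pools did not overlap for either, where 21.1% of all genes were higher and 19.1% lower in that way. Ddr1, the tested receptor of highest signal, read 6572 and 5141 against 10464 and 2157 with overlap (0.29 ± 0.62). The fibrillar collagen receptor Ddr2 read 1763 and 1783 against 1345 and 1273 (0.43 ± 0.25). The adjusted p of Lox, Itgb1 and Itga10 was between 0.444 and 0.468.

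Signals of other cell types differed between the pools as well, and in bulk RNA fewer cells of a type and less RNA per cell cannot be told apart. All 17 cardiomyocyte markers were below 0, with summed signals of 100059 and 148092 in Cxcr7-/- pools against 185054 and 262828 in Control pools. The 8 smooth muscle markers tested were all below 0, with sums over 10 listed genes of 17379 and 21987 against 27172 and 36202. The 13 macrophage markers were all above 0, with sums of 23233 and 19672 against 14048 and 11679. Of 12 endothelial markers 10 were below 0, with sums of 25373 and 24257 against 32512 and 34705. The 12 valve interstitial markers had 7 above 0 and 5 below, with sums of 265358 and 278972 against 274362 and 184878, so Control replicate 2 was the low pool. Of 6 lung epithelial markers tested 5 were below 0, with sums over 8 genes of 1483 and 1847 against 4539 and 8162. Of 6 Schwann cell and neuron markers 5 were above 0, with sums of 2820 and 2266 against 1616 and 1633. The 3 adipocyte markers tested were below 0, with sums over 7 genes of 4525 and 8295 against 13534 and 14642. Of 3 erythroid markers 2 were below 0, with sums over 4 genes of 1241 and 2794 against 2501 and 2000.2. Lower at an unadjusted p under 0.05 in limma were 12 cardiomyocyte, 5 smooth muscle, 4 endothelial, 2 lung epithelial and 1 adipocyte markers. Of all genes tested, 4.09% were lower by that rule. Higher were 8 macrophage and 3 Schwann cell and neuron markers, where 3.95% of all genes were. Of the valve interstitial markers 1 was higher and 1 lower, and of the erythroid markers none. The part of these cells in the collagen values was not tested.

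Cartilage markers other than collagens lay on both sides of 0. Of 9 listed genes 4 were above the filter, 1 of them above 0 and 3 below. Hapln1, the link protein of hyaluronan, read 7343 and 8564 against 4443 and 3665 (0.97 ± 0.23), and Acan, the aggrecan core protein, read 145 and 150 against 289 and 391 (-1.08 ± 0.35). Sox9, the cartilage transcription factor, read 552 and 463 against 946 and 333 with overlap (-0.15 ± 0.47). Comp read 147 and 246 against 194 and 337 with overlap (-0.39 ± 0.41). Matn1, Matn3, Chad, Cnmd and Snorc were below the filter and were not tested. Of these, Chad was lower without overlap, at 2.67 and 7.59 against 93.3 and 161. Cnmd and Snorc were higher in Cxcr7-/- pools without overlap, at signals of at most 75.4, and the pools of Matn1 and Matn3 overlapped. The summed signal of the list, most of it from Hapln1, was 8294 and 9581 in Cxcr7-/- pools against 6063 and 4945 in Control pools. By contrast, 3 of the 4 tested members were below 0.

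The remaining 12 chains were too dim to test, with signals from 0.716 to 114 over all pools. They were Col2a1, Col11a2 and Col24a1 among fibrillar chains, Col9a2, Col19a1 and Col20a1 among FACIT chains, Col4a3, Col6a4, Col6a5, Col8a2, Col10a1 and Col17a1. Col19a1, the direct neighbour of Col9a1 on chromosome 1, read 38.1 and 50.6 against 59.9 and 28.1.

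The counts rest on few pools. Without Cxcr7-/- replicate 1, 1 chain had an unadjusted p under 0.05 in limma, where 2.66% of all genes did. Without Cxcr7-/- replicate 2 it was 2 chains, where 4.64% of genes did, so the share of all genes fell as well. With median centring 2 chains were higher and 1 was lower, where 6.32% and 1.78% of all genes were. Without Control replicate 1, 6 of 30 chains were called, where 20.3% of all genes were. Col9a1 was the chain whose unadjusted p was under 0.05 in that test and in all 14 alternative settings.

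**Figure D5:**
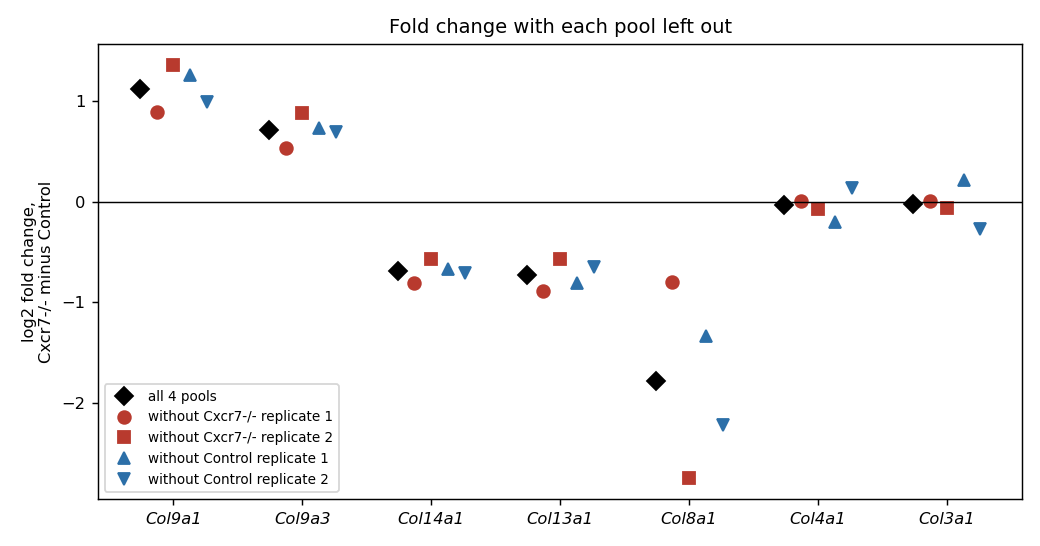
The log2 fold change (Cxcr7-/- minus Control, y axis) of 7 chains is shown with all 4 pools (black diamonds) and with each pool left out in turn (coloured symbols). Col9a1 stays between 0.89 and 1.36, Col8a1 ranges from -2.75 to -0.80, and Col4a1 and Col3a1 fall on both sides of 0.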

How the data were processed

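The authors deposited 1 linear intensity for each of 45101 probe sets per array, made with MAS5 in Affymetrix Expression Console per the submitters' processing notes. The sources used here give no version, detection call or genome build. Each array had a trimmed mean of 500.0 over its middle 96%, so values are relative to an array's total signal. Per the labels' protocols, 50 ng of total RNA was amplified in 2 rounds, which weakens signal far from the 3' end. The 64 control probe sets were left out. Signals were taken as log2(signal + 22), where 22 is the rounded 25th percentile, and fold changes are on that scale, which understates the change of low genes. Probe sets with a mean log2 value above the median of 6.77 were kept, 22518 of 45037. In the annotation 34945 probe sets had 1 symbol, 932 several and 9160 none. The genotype test was two-sided, from limma 3.58.1 (R 4.3.3) with eBayes variances that follow intensity, on 2 residual and 5.85 prior degrees of freedom, with Benjamini-Hochberg adjustment over all probe sets kept, and the procedure was tested on simulated data. An exact permutation test of 2 against 2 pools has 0.333 as its smallest p and was not run. The number of arrays limits the precision, and a signal of 1 probe set is not set against that of another. Named chains were those with an unadjusted p under 0.05 or a log2 fold change of at least 1 in size and those of highest signal in each class, with all chains counted. Others named were chosen after their values were seen, among them the second probe sets, Loxl1, Serpinh1, P4ha2, P3h1, Plod1, Plod2, Ddr2 and single marker genes. The chains and gene lists were chosen with earlier results of these data known. Classes follow the collagen type number. Setting type IX apart from the other FACIT chains was not among the planned classes. The alternatives were 2 other pseudocounts, 2 filters, 2 scalings, no trend, the mean over probe sets, a replicate block, each array left out, and a crossed block added after seeing the data.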

Additional observations from a re-analysis of the deposited data

How the results depend on the processing

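With 2 pools a genotype and no detection calls, signal near background limits what dim chains can show, and single pools weigh on most values. The number of chains at an unadjusted p under 0.05 in limma, 5 in the fit reported, was 3 with median centring (8.1% of all genes) and ran from 1 to 6 with a pool left out, where the share of all genes ran from 2.66% to 20.3%. The number higher was 1 with the mean over probe sets, where 4.28% of all genes were higher. The number lower was 1 with median centring, where 1.78% of all genes were lower. Both numbers varied with a pool left out, as did the shares of all genes. Past an adjusted p of 0.05 the number ran from 0 to 1, the 1 being Col9a1 without Control replicate 1. Of 30 maturation enzymes and receptors tested, 3 had an unadjusted p under 0.05 in limma, where 8.04% of all genes did. With median centring it was 1, where 8.1% of all genes were called, and the number varied with a pool left out. Chains without overlap were 4 higher (30.3% of all genes) and 7 lower (9.65% of all genes) with median centring.

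The replicate numbers are not tied to a litter or day, and deviations of same-numbered pools correlated at -0.262. With the replicate number as a block, 3 chains had an unadjusted p under 0.05, 1 of them higher, where 5.69% of all genes did. With the numbers crossed, a pairing added after seeing the data, 6 chains did, 2 higher and 4 lower, where 11.6% of all genes did, and 0 passed after adjustment.

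The median over chains was -0.085 with median centring and ran from -0.30 to -0.13 with a pool left out. The fibrillar median was -0.28 with no filter and 0.026 with centring, and ran from -0.23 to 0.078. The type IV median was 0.067 with centring, -0.11 with quantile normalization and -0.24 with the mean over probe sets, and ran from -0.37 to -0.024. The transmembrane median was -0.34 with the larger pseudocount, -0.51 with no filter, -0.73 with the stricter filter, -0.26 with centring, -0.32 with quantile normalization and -0.57 with the mean over probe sets, and ran from -0.46 to -0.33. The FACIT median ran from -0.42 to -0.031 and the beaded filament median from -0.48 to 0.057.

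Chains near 0 changed sign. With centring Col3a1 was 0.11, Col4a1 0.10, Col4a4 0.067 and Col4a5 0.004. With quantile normalization Col5a2 was -0.024 and Col4a2 -0.010, and with the mean over probe sets Col1a2 was -0.073 and Col5a2 -0.067. Without Cxcr7-/- replicate 1, Col3a1 was 0.008, Col4a1 0.005 and Col4a2 -0.037. Without Cxcr7-/- replicate 2, Col4a4 was 0.065 and Col26a1 0.036. Without Control replicate 1, Col3a1 was 0.21, Col4a2 -0.024, Col4a4 0.56 and Col4a5 0.12. Without Control replicate 2, Col1a2 was -0.042, Col5a2 -0.19, Col4a1 0.13, Col6a1 0.057 and Col18a1 0.099. The other end of the leave-one-out range was 0.24 for Col1a2, 0.25 for Col5a2, -0.20 for Col4a1 and -0.41 for Col18a1 without Control replicate 1, 0.070 for Col4a2 without Cxcr7-/- replicate 2, and -0.27 for Col3a1, -0.70 for Col4a4 and -0.39 for Col4a5 without Control replicate 2. The cause was not tested. Chains that the stricter filter removed, Col8a1 and Col23a1 among them, have no value there.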
